A study of Mus musculus with 8 samples.

Results

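Levels of 9 genes for pancreatic digestive enzymes were examined in the small intestine of mouse embryos with and without Rfx6. The genes are Prss2, Try4, Cela1, Cela2a, Cela3b, Ctrb1, Cpa1, Cpb1 and Clps. They were found as the array probes whose printed gene name equals one of these symbols, which gave 10 of the 55681 probes on the array, 2 of them for Clps. All 9 genes were among the 23284 genes tested.

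RNA from the embryos' small intestine, taken at E18.5, was hybridised to 8 single-colour Agilent arrays. The 4 control arrays carry wild-type (Rfx6+/+) samples, and the 4 knockout arrays, labelled Rfx6 KO, carry Rfx6-/- samples. The null allele came from Rfx6f/+ mice crossed with CMV-Cre mice, a line that expresses the recombinase in nearly all tissues. The resulting Rfx6+/- animals were then intercrossed, so the deletion was constitutive and was not limited to the intestine. Because each array holds RNA of a whole organ, fewer cells of a type and less RNA per cell cannot be told apart.

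Pancreatic acinar cells make digestive enzymes, most of them as inactive precursors, and release them through the pancreatic duct into the duodenum. Trypsinogens are activated there by enteropeptidase on the brush border of the intestine, and trypsin then activates the other precursors. Transcription of these genes in acinar cells depends on the PTF1 complex, in which Ptf1a binds an E-box and its partner Rbpjl or Rbpj binds a TC-box. Rfx6 is a transcription factor of endocrine cells in the pancreas and the gut, and the gut hormones cholecystokinin and secretin stimulate pancreatic secretion.

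What each signal measures is set by its probe, a 60-base oligonucleotide, given here 5′ to 3′. The Prss2 and elastase probes are shown because these genes belong to families of similar sequence, and the Clps probe because that gene has a pair of probes.
Prss2 probe: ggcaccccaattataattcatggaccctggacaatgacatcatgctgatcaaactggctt
Cela1 probe: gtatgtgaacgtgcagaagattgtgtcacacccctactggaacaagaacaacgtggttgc
Cela2a probe: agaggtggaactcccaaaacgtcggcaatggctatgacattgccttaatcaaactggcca
Cela3b probe: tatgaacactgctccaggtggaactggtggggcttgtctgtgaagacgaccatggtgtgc
Clps second probe: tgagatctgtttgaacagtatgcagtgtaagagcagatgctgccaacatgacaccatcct
On the mm9 build given in the files, the Prss2 probe lies at chr6:41473937-41473996 (+) and starts at base 311 of its transcript. The Cela1 probe lies at chr15:100515014-100515073 (-) and starts at base 314. The Cela2a probe lies at chr4:141377348-141377647 (-) and starts at base 352. Its 60 bases span 300 bases of genome, so its match is split in the genome, as for a probe that crosses an intron. The Cela3b probe lies at chr4:136979192-136979251 (-) and starts at base 570. It shares a run of 21 bases, and 52 of 58 aligned bases, with a Cela3a probe on the same array, so signal from that near copy cannot be separated here. No run of 16 or more bases was shared with another probe for Prss2, Cela1 or Cela2a. Probes were compared with probes and not with whole transcripts, so this does not show that they are specific.

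The probes of the other genes are given by position. The Try4 probe, at chr6:41255472-41255531 (+) and from base 738, is listed for transcripts of both Try4 and Try5, and shares a run of 31 bases with the Try5 probe, so its level may hold RNA of both trypsinogens. The Ctrb1 probe lies at chr8:114210454-114210513 (-) from base 783, the Cpa1 probe at chr6:30595240-30595299 (+) from base 1456, and the Cpb1 probe at chr3:20149467-20149526 (-) from base 1350. The brighter Clps probe, which represents the gene in the test, lies at chr17:28695162-28695221 (-) from base 431. The second, printed above, lies at chr17:28695761-28695820 (-) from base 152.

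The 250 bases upstream of the start site, from RefSeq on GRCm38.p6, were available for 8 of the 9 genes. Of those 8, the sequences of Cela1, Cela2a and Prss2 held both motifs of the PTF1 complex that were searched on both strands, CACCTG (a form of the E-box CANNTG) and TTTCCC, the TC-box. They are shown 5′ to 3′ with these motifs, or their reverse complements CAGGTG and GGGAAA, in capitals.
Cela1 upstream, chr15:100687921-100688170 (-): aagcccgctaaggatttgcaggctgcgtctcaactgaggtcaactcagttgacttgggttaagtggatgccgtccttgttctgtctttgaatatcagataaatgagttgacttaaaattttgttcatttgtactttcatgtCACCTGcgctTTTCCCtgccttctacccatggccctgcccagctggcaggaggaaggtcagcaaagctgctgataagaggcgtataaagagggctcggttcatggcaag
Cela2a upstream, chr4:141826006-141826255 (-): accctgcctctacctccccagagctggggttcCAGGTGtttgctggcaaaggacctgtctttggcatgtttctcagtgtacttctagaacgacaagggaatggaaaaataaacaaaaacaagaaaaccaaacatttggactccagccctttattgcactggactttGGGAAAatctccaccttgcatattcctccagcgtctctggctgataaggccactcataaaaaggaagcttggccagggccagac
Prss2 upstream, chr6:41521526-41521775 (+): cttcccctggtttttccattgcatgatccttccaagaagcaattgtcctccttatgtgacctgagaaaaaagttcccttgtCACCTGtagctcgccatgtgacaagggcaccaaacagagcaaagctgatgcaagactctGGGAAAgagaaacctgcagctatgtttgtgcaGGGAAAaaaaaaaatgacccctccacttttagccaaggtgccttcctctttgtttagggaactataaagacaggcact
In Cela1 the CACCTG lies 109 to 104 bases and the TTTCCC 99 to 94 bases before the start site. The motifs lie farther apart in the other sequences shown. In Cela2a they are 218 to 213 and 84 to 79 bases before the start site. In Prss2 the CACCTG is 169 to 164 bases before it, and the GGGAAA 110 to 105 and 78 to 73 bases. CACCTG was found in 6 of the 8 sequences and in 17.2% of all 32851 promoters of the same length. TTTCCC was found in 5 of 8 and in 21.95% of all, and both together in 3 of 8 and in 3.61% of all. The general E-box CANNTG was in 8 of 8 and in 66.2% of all promoters, and TATAAA in 3 of 8 and in 12.4%. A half-site for RFX factors, GTTGCC, was in 1 of 8, that of Try4, and in 10.4% of all. These matches describe letters and not bound sites.

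The enzyme genes were well above background on every array, with all 10 probes so marked on 8 of 8 arrays. Between the lowest and the highest array of a genotype, 7 of them varied by 2.64-fold or more, and Cela1 and Clps by less. The same arrays were high for each gene, control 1, control 3 and knockout 1. Trypsinogens, chymotrypsinogen, elastases other than Cela1 and carboxypeptidases had lower means on the knockout arrays, and Cela1 and Clps slightly higher ones, but no gene passed the test between the groups and the groups overlapped for all 9. A level is the log2 of a probe's processed signal after the 75th percentile of the array's log2 signals has been subtracted, so 0 is the signal of a fairly bright probe, and levels are compared between arrays and not between genes. Differences are knockout minus control.

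**Figure D1:**
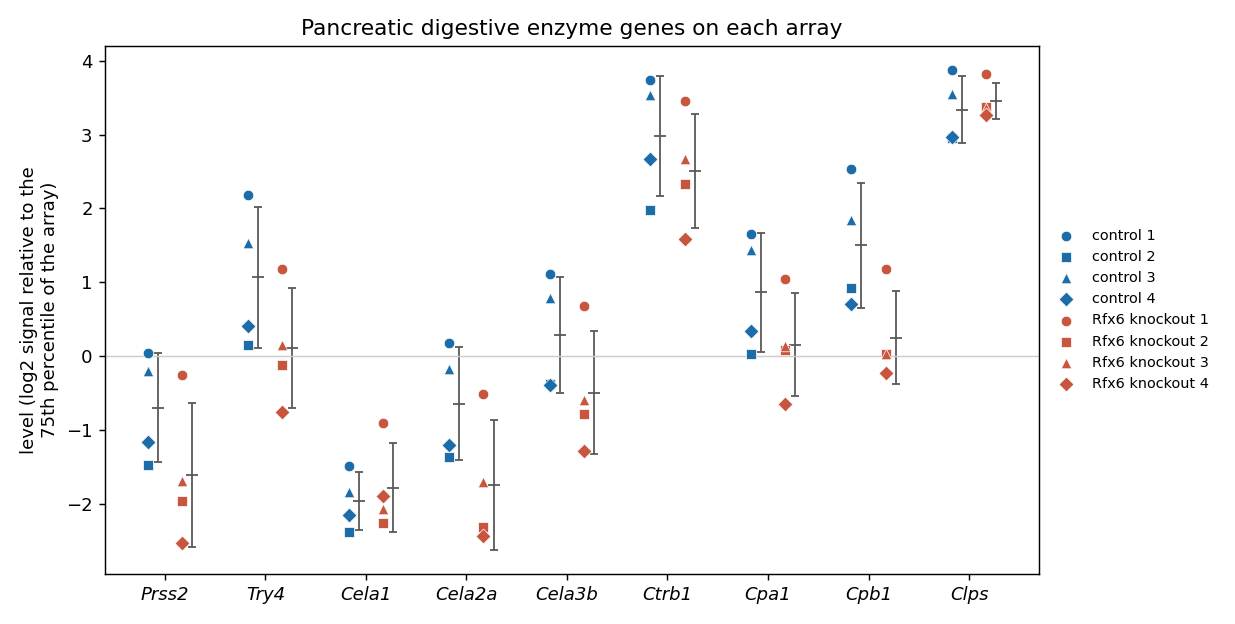
Level of each of the 9 genes (horizontal axis) on each array (log2 signal relative to the 75th percentile, vertical axis), controls in blue and Rfx6 knockouts in red, with a bar for the mean and SD of the 4 arrays of a group. Control 1 is the highest control and knockout 1 the highest knockout for 9 of 9 genes, and for each gene the groups overlap.

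The trypsinogens Prss2 and Try4 are precursors of trypsin, the protease that starts the activation of the others. Prss2 had levels of 0.046, -1.47, -0.20 and -1.17 on controls 1 to 4 and of -0.25, -1.96, -1.69 and -2.53 on knockouts 1 to 4. Controls 1 and 3 and knockout 1 were high, and knockout 1 lay above controls 2 and 4. The means were -0.70 ± 0.74 (SD, n = 4) and -1.61 ± 0.97 (SD, n = 4), a difference of -0.91 ± 0.50 (SE; adjusted p 0.351 by limma and unadjusted p 0.143 by exact permutation). Try4 had levels of 2.18, 0.14, 1.53 and 0.41 on the controls and of 1.18, -0.12, 0.15 and -0.76 on the knockouts. Its order of arrays was led by controls 1 and 3 and then knockout 1, and knockout 3 was level with control 2. Try4 differed by -0.95 ± 0.52 (SE; adjusted p 0.341 by limma and unadjusted p 0.171 by exact permutation), from 1.07 ± 0.96 to 0.11 ± 0.81 (SD, n = 4 each).

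Ctrb1 encodes the precursor of chymotrypsin, a protease that cuts after aromatic residues. Its processed signal was 8861, 2763, 7473 and 4447 units on controls 1 to 4 and 8117, 3464, 4530 and 1909 units on knockouts 1 to 4. On the log2 scale these are 3.74, 1.98, 3.54 and 2.67, against 3.45, 2.33, 2.67 and 1.59. The lowest control lay below 3 of the 4 knockouts. The means were 2.98 ± 0.81 and 2.51 ± 0.78 (SD, n = 4 each), a difference of -0.48 ± 0.47 (SE; adjusted p 0.602 by limma and unadjusted p 0.429 by exact permutation).

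Among the elastases, Cela2a and Cela3b had a lower and Cela1 a higher mean on the knockouts. Cela2a, an elastase that acts on hydrophobic residues, had levels of 0.18, -1.37, -0.17 and -1.21 on the controls and of -0.51, -2.31, -1.70 and -2.43 on the knockouts. Only knockout 1 lay within the range of the controls. Its difference was -1.10 with an SE of 0.48, the unadjusted p was 0.0496, and it did not pass after adjustment (limma adjusted p 0.243, exact permutation p 0.114). Cela3b had levels of 1.12, -0.38, 0.78 and -0.39 against 0.68, -0.78, -0.60 and -1.28. Knockout 1 again stood with controls 1 and 3, and the other knockouts lay below every control. Cela3b differed by -0.78 ± 0.48 (SE; adjusted p 0.401 by limma and unadjusted p 0.171 by exact permutation). Cela1, which is also made outside the pancreas, had levels of -1.49, -2.38, -1.83 and -2.16 on the controls and of -0.91, -2.26, -2.07 and -1.90 on the knockouts. Knockout 1 was here the highest of all arrays, at a processed signal of 395 units against 134 to 236 on the controls. Cela1 differed by 0.18 ± 0.30 (SE; adjusted p 0.766 by limma and unadjusted p 0.657 by exact permutation), and without knockout 1 the difference was -0.11.

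The carboxypeptidases trim the peptides left by the other proteases from their carboxyl end, Cpa1 at aromatic and aliphatic residues and Cpb1 at basic ones. Cpb1 had levels of 2.53, 0.93, 1.84 and 0.70 on the controls and of 1.17, 0.026, 0.027 and -0.23 on the knockouts. Knockout 1 lay between the controls, and knockouts 2 to 4 lay below all of them. Its means of 1.50 ± 0.85 and 0.25 ± 0.63 (SD, n = 4 each) differed by -1.25 with an SE of 0.44, the widest difference among the 9 genes and 2.38-fold in signal. The unadjusted p was 0.0191, and the difference did not pass after adjustment (limma adjusted p 0.151, exact permutation p 0.0857). With the replicate number as a block it did (limma adjusted p 0.0333), as did Cela2a (0.0339), although same-numbered samples did not deviate together over all genes. Cpa1 had levels of 1.66, 0.026, 1.43 and 0.34 against 1.05, 0.080, 0.14 and -0.65. Knockouts 1 to 3 all lay above control 2. Cpa1 differed by -0.71 ± 0.44 (SE; adjusted p 0.409 by limma and unadjusted p 0.229 by exact permutation).

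Clps encodes colipase, the cofactor that anchors pancreatic lipase to fat droplets. Its brighter probe had levels of 3.88, 2.96, 3.55 and 2.96 on the controls and of 3.82, 3.38, 3.37 and 3.27 on the knockouts. Every knockout lay above controls 2 and 4 and below control 1. The difference was 0.12 ± 0.22 (SE; adjusted p 0.790 by limma and unadjusted p 0.629 by exact permutation). The second probe had levels of 2.04, 1.30, 1.80 and 1.18 against 2.18, 1.58, 1.66 and 1.69, a difference of 0.20 (limma adjusted p 0.642 with every probe tested). The probes ran in the same direction, with control 1 and knockout 1 the highest on each.

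Between the groups, 0 of the 9 genes passed the threshold of 0.05 by limma after Benjamini-Hochberg adjustment, where 4.92% of all genes tested did. Of all genes, 2.59% passed lower and 2.33% passed higher on the knockout arrays. Without adjustment 2 of the 9 had a limma p under 0.05, against 20.5% of all genes tested, and 0 had an exact permutation p under 0.05. The difference was below 0 for 7 genes and above 0 for Cela1 and Clps, with a median of -0.78 over the 9 against -0.05 over all genes. The groups were free of overlap for 0 of the 9 genes, against 14.6% of all genes. The 95% intervals of the difference were wide, so these data do not show that levels are alike. For Prss2 the interval ran from -2.05 to 0.23, for Ctrb1 from -1.53 to 0.58 and for Cpb1 from -2.24 to -0.26, the last before any adjustment for the number of genes. The interval for Clps was the narrowest, from -0.38 to 0.62.

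**Figure D2:**
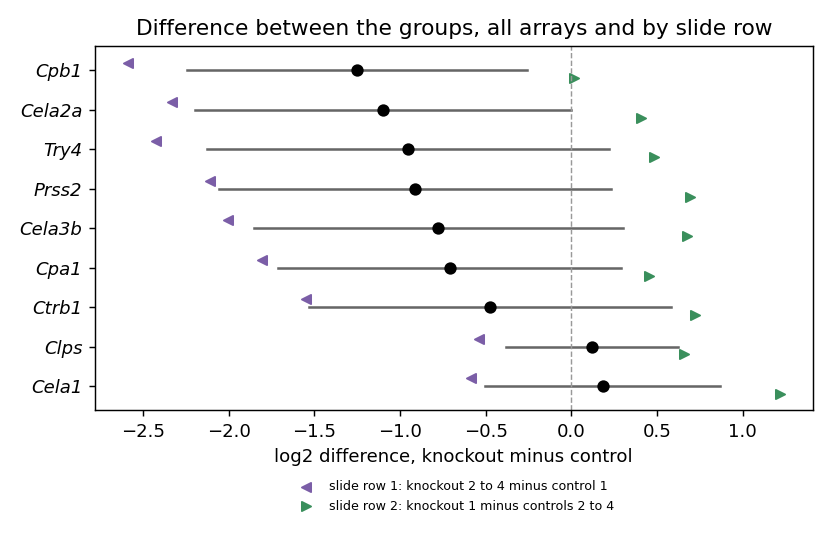
Difference in log2 level, knockout minus control (horizontal axis), for each of the 9 genes, with black points for all 8 arrays and lines for the unadjusted 95% interval. Triangles give the difference within each row of the slide, below 0 for all 9 genes in row 1 and above 0 for all 9 in row 2.

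The difference was also taken within the rows of the slide. The 8 arrays lay on 1 slide in 2 rows, with control 1 and knockouts 2 to 4 in row 1 and controls 2 to 4 and knockout 1 in row 2. Within row 1 the knockouts were lower for all 9 genes, with differences of -2.59 for Cpb1, -2.43 for Try4 and -0.54 for Clps. Within row 2 the single knockout was higher than the mean of its controls for all 9 genes, by 0.018 for Cpb1, 0.49 for Try4 and 1.22 for Cela1. Each row has a group of 1 array, and that array, control 1 or knockout 1, was the highest of its group for all 9 genes, so these signs follow from those arrays and have no test. With the row as a block all 9 genes kept the direction found over 8 arrays, 0 of the 9 genes were called and the lowest limma adjusted p was 0.233.

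Levels differed widely between arrays of the same genotype. Between the lowest and the highest control, Try4 spanned 4.10-fold, Cpb1 3.56-fold, Ctrb1 3.39-fold and Cpa1 3.10-fold. Among the knockouts, Prss2 spanned 4.85-fold, Cela3b 3.90-fold, Try4 3.84-fold and Cela2a 3.80-fold. Clps and Cela1 varied least, by 1.89-fold and 1.86-fold among the controls and by 1.46-fold and 2.55-fold among the knockouts. The SD within the groups had a median of 0.79 over the 9 genes, with a range of 0.36 to 0.88, where the median over all genes tested was 0.17. As a percentile of all genes it ran from 90.3 for Clps to 98.98 for Try4, with a median of 98.5.

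**Figure D3:**
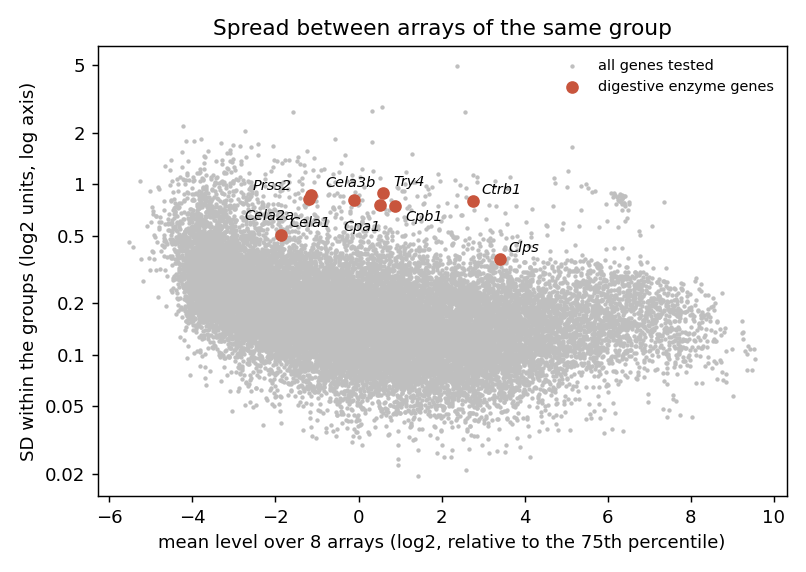
SD between arrays within the groups (log2 units, log axis) against the mean level over the 8 arrays, with 1 grey point for each gene tested and red points for the 9 enzyme genes. The 9 genes lie toward the upper edge of the cloud, at SDs of 0.36 to 0.88 against a median of 0.17.

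The spread followed the same arrays for every gene. Controls 1 and 3 and knockout 1 were the 3 highest of the 8 arrays for 9 of the 9 genes. The pattern was found for 230 of 23174 genes with a value on all arrays (0.992%), the 9 included. These 3 arrays were chosen from the levels of the 9 genes themselves, so the count for the 9 is not a test. Control 1 was the highest control and control 3 the second for 9 of 9, and knockout 1 the highest knockout for 9 of 9. Knockout 4 was the lowest knockout for 8 of 9, with Cela1 lowest on knockout 2. Knockout 1 stood above the mean of the controls for 8 of the 9 genes, Cpb1 being the other one. With each gene centred on its own mean over the arrays, the median over the 9 was 1.20, -0.44, 0.92 and -0.17 on controls 1 to 4 and 0.68, -0.67, -0.44 and -1.16 on knockouts 1 to 4. The genes share these arrays and their RNA, so their common pattern is not a set of separate observations.

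Many other acinar enzyme genes were highest on the same 3 arrays. This is called the array order of the enzymes below, whatever the rank among the 3. Of 23 genes on that list, 17 were tested, 3 were at background throughout (not well above it on any of the arrays, Pnlip among them, the main pancreatic lipase) and 3 were not named on the array. Controls 1 and 3 and knockout 1 were the 3 highest arrays for 11 of the 17, among them Prss1, Try5, Cela3a, Cel, Pnliprp1 and the amylases Amy2a5 and Amy1. They were not for Klk1, Ctrl, Pnliprp2, Rnase1 and Dnase1 (differences of 0.34, -0.22, 0.080, -0.23 and 0.68, none called) or for Pla2g1b. Amy2a5 had levels of 6.10, 4.59, 5.53 and 4.25 on the controls and of 5.16, 4.02, 4.13 and 3.76 on the knockouts, so that controls 1 and 3 and knockout 1 again led. The 17 had a median difference of -0.60, and 0 were called lower and 1 higher. The gene called was Pla2g1b, a secreted phospholipase of the acinar cell. Its probe of highest mean level was well above background on 0 of 4 controls and 4 of 4 knockouts. It was at least 9.53-fold higher there (limma adjusted p 2.2e-05), measured against the higher of its own control signal and the lowest signal well above background on each array. Its log2 difference was 2.14 with normexp background correction and 2.27 with the series matrix. Both are smaller in size than that bound, which holds for the main processing alone. This probe entered the test through the knockout arrays alone, and it had a value in 13 of 19 alternatives. A second Pla2g1b probe, well above background on 7 arrays, differed by 0.34 (limma adjusted p 0.457 with every probe tested), so the probes disagree. On the controls the second probe was the brighter, at -4.34, -4.59, -4.07 and -3.50 against -5.71, -6.36, -7.06 and -6.48. With quantile normalization, or on leaving out a knockout, the second probe represented the gene, so the call depends on the probe.

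**Figure D4:**
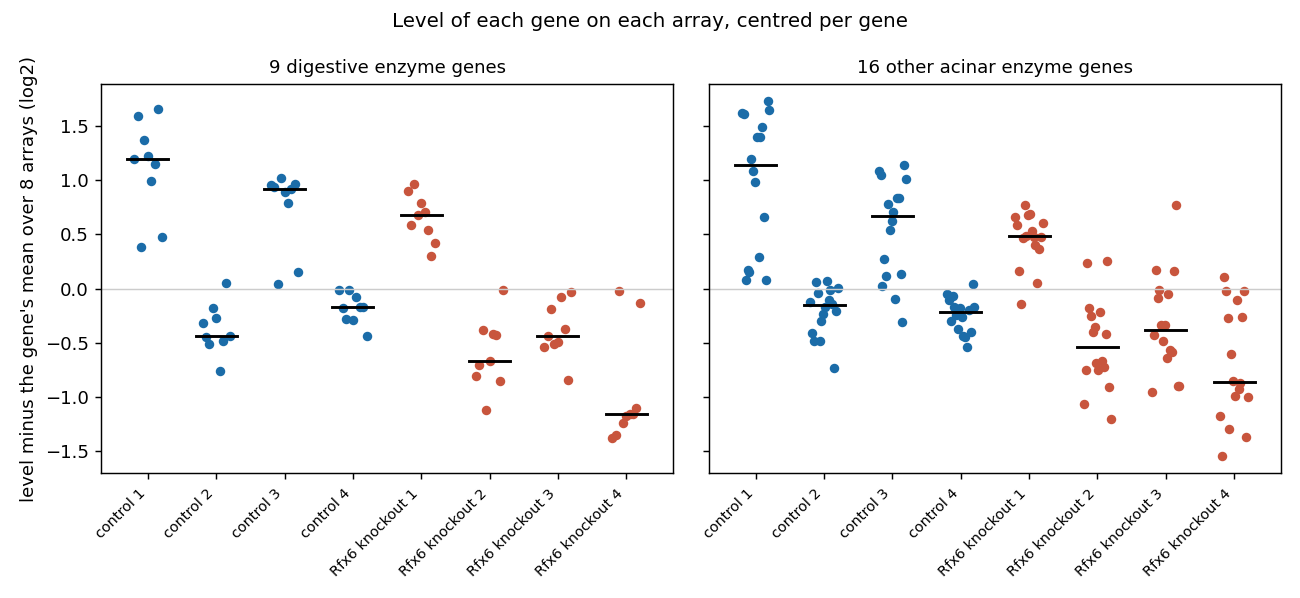
Level of each gene on each array minus its own mean over the 8 arrays (log2 units, vertical axis), for the 9 enzyme genes on the left and 16 other acinar enzyme genes, without Pla2g1b, on the right, with a line at the median. The medians were 1.20, 0.92 and 0.68 on control 1, control 3 and knockout 1 for the 9 genes and 1.14, 0.67 and 0.48 for the 16, and below 0 on the other arrays.

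The genes with the pattern most like the mean of the 9 over the 8 arrays were sought among 23165 others. The 10 closest by Pearson correlation included Cel (0.994), the bile salt-activated lipase, then Try5 (0.987), Cela3a (0.986), Pnliprp1 (0.984), Amy2a5 (0.970), Prss1 (0.966), the predicted genes Gm10334 (0.966) and Gm5771 (0.965), and the transcript TC1733495 (0.957). Of these 9 genes, 7 are on the list of other acinar enzymes. Cel had levels of 1.23, 0.0028, 0.87 and 0.060 on the controls and of 0.92, -0.45, -0.091 and -0.61 on the knockouts. With the group means removed, C1ql3 (0.961), which varied by only 0.67 over the arrays, replaced TC1733495. These values describe 8 arrays that share their RNA with the 9 genes, and the Try5 probe shares sequence with that of Try4. The Cela3b probe shares sequence with a Cela3a probe other than the one compared here, so Cela3a signal on it cannot be separated.

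In the remaining acinar lists some genes passed the test. Among 11 tested genes for secretory and inhibitor proteins of acinar cells, 4 were called lower, 0 higher, and the median difference was -0.41. These 4 are the lectin genes Reg1 (-3.37, adjusted p 0.0117), Reg3b (-2.22, 7.3e-04) and Reg3g (-2.73, 0.0035) and the granule lectin gene Zg16 (-1.38, 0.0068), all by limma, and all of them are also expressed by intestinal epithelium. The call of Reg1 was lost with a replicate block (adjusted p 0.0632). Controls 1 and 3 and knockout 1 were the 3 highest arrays for 1 of the 11 genes, Sycn, which encodes a zymogen granule protein. Among 8 transcription factors, Bhlha15, a regulator of secretory cells, was higher by 1.76 (limma adjusted p 0.0025) and Gata4 fell by 0.51 (limma adjusted p 0.0396), a call kept in 8 of 19 alternatives. Ptf1a, the defining factor of acinar cells, was well above background on 0 of the 8 arrays. The median difference of the 8 was -0.12, and the array order of the enzymes was found for 0 of them. Ptf1a and Pnlip were singled out after their values were seen.

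Genes that control pancreatic secretion were also examined. Of 6 tested, Cck, for cholecystokinin, fell by 5.16 (limma adjusted p 8.0e-09) and Sct, for secretin, fell by 1.55 (limma adjusted p 9.7e-05), while Chrm3, a muscarinic receptor well above background on 2 of 4 controls, was higher by 0.90 (limma adjusted p 0.0420), a call kept in 4 of 18 alternatives and with a difference of 0.20 with normexp. Cck stood at 5.22, 5.16, 4.92 and 5.02 on the controls and at -0.19, -0.045, -0.085 and -0.019 on the knockouts, so its groups lay far apart while those of the enzymes overlapped. Tmprss15, which encodes enteropeptidase, was well above background on 3 of 4 controls and 0 of 4 knockouts and was not tested. It was at least 1.95-fold lower on the knockouts. It too was singled out after its values were seen. The median difference of the 6 was 0.02.

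Markers of other tissues moved with the groups or with single arrays. Of 7 islet genes tested, 5 were lower, with a median difference of -2.27. Gcg and Sst on this list are also expressed by endocrine cells of the intestine, so the list does not mark pancreas alone. Iapp fell by 3.39, Ins1 by 2.27 and Ins2 by 0.78 on the log2 scale. Sst, well above background on 1 of 4 knockouts, fell by 7.25, a size that rests in part on background signal, and Gcg was at least 111-fold lower, not being well above background on any knockout. With normexp background correction the differences were -1.99 for Iapp, -1.22 for Ins1, -4.96 for Sst and -5.08 for Gcg. With the series matrix they were -1.97, -1.19, -5.01 and -5.07. Both values for Gcg are smaller in size than its bound, which holds for the main processing alone. Ins2 was called in 13 of 19 alternatives, and the call of Ins1 was lost with a replicate block (limma adjusted p 0.0790). Of 5 duct genes, 1 was called, Spp1, with a difference of 3.45, or 1.70 with normexp and 1.86 with the series matrix. It was well above background on 1 of 4 controls, so its size too rests in part on background signal. The median over the duct list was 0.47. The array order of the enzymes was found for 0 of the genes on either list.

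Of 10 stomach genes tested, 8 were higher on the knockouts, Gkn1, Gkn2, Gkn3, Tff1, Atp4a, Atp4b, Cblif and Vsig1, with a median difference of 6.60, or 5.33 with genes not well above background on any control set at their bound. Gkn2, Atp4a, Cblif and Vsig1 were well above background on 0 of 4 controls and entered the test through the knockouts alone. Atp4b was so on 1 control and Gkn1 and Tff1 on 2, so these sizes too rest in part on background signal. With normexp the differences were 2.80 for Atp4a, 5.24 for Atp4b, 5.08 for Cblif and 1.35 for Gkn1. The mean of the list ran from -4.83 to -3.66 on the controls and from 1.56 to 2.28 on the knockouts. Of 9 liver genes, 4 were higher, Fga, Fgb, Trf and Ttr, by 0.63 to 1.48, and the median was 0.94. The mean of the liver list was 2.96, 1.78, 1.65 and 1.61 on controls 1 to 4 and 3.40, 2.76, 3.15 and 2.69 on knockouts 1 to 4. Within each group it was highest on control 1 and on knockout 1, where the enzymes were high. Knockout 3 was second among all arrays for the liver list and low for the enzymes, and control 3 was high for the enzymes and not for the liver list. Alb, the defining liver gene, stood at 1.75, -1.38, -3.16 and -2.91 on controls 1 to 4 and at 1.96, -0.62, 0.73 and -0.93 on knockouts 1 to 4. It was not called (limma adjusted p 0.416) and is named here in addition to the liver genes past the threshold. The part of either tissue in the enzyme levels was not tested. The labels do not say whether pancreas was removed from the dissected intestine, and its part in the enzyme levels was not tested either.

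Markers of the intestine itself were present on every array, with a mean of the epithelial list between 5.98 and 6.44. Of 10 epithelial genes 3 were lower, with differences of -0.65 for Fabp1, -0.61 for Apoa4 and -0.42 for Fabp2 and a median of -0.23 over the list. Of 13 brush border enzymes 3 were lower, with differences of -1.36 for Mme, -1.53 for Treh and -0.75 for Lct and a median of 0.018. With normexp the difference of Treh was -0.75. Apart from Mme these calls were lost under 1 or more alternatives, with Fabp2 kept in 6 of 19 and Lct in 7 of 19. Of 7 genes of spleen and blood, among them Hba-a1, Hbb-b1 and Cd52, and of 6 of smooth muscle, among them Actg2, Acta2 and Tagln, 0 were called by limma, with medians of -0.09 and 0.22. At an unadjusted p under 0.05 there were 2 and 0 genes, and by exact permutation 1 and 0. The array order of the enzymes was found for 0 genes on any of these lists or on the stomach and liver lists.

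Over the series, the 75th percentile of the signal ran from 636 to 741 units before scaling, and 57.5% to 67.1% of probes were well above background. This share was 62.8% and 63.5% on controls 1 and 3 and 57.5% on knockout 1, so the arrays high for the enzymes were neither all high nor all low in it. No gene spot was saturated. The Rfx6 probe stood between -3.74 and -2.91 on the controls and between -3.37 and -2.25 on the knockouts, with a difference of 0.38 (limma adjusted p 0.503), so it does not check the labels.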

How the data were processed

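Each deposited scanner file holds the intensity of 62976 spots on 1 array. Per the file headers, background had been subtracted from the processed intensity by the authors' software, Feature Extraction 10.10.1.1 per the submitters' processing notes. Per the labels' protocols, cyanine 3 complementary RNA was made from 100 ng of total RNA. Intensity values in the deposited series matrix served as an alternative. Its columns are linear, follow the spot medians in direction (Spearman correlation 1.00) and have a median of 129.6 on every array. How the arrays were equalised is not given in the sources used here.

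Control spots and outlier flags were left out and spots of a probe averaged. Levels are log2 signals less each array's 75th percentile. Probes well above background on all 4 arrays of a group were kept (31662 probes), and the probe of highest mean level represented a gene (23284 genes). Of the 55681 probes, 26582 were named through a RefSeq accession, 2602 by a current symbol, 492 by a synonym, and 26005 by the file alone. Coordinates are on mm9.

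Groups were compared with limma 3.58.1 in R 4.3.3 (lmFit and eBayes, two-sided, Benjamini-Hochberg adjustment over all genes, threshold 0.05). Exact two-sided permutation tests used the 70 splits of the 8 arrays, for which 0.0286 is the smallest possible p. The labels number the samples and do not say whether each came from a separate animal or litter, so p-values measure the spread between these samples. The number of arrays and the spread between samples of a group both limit the precision. The fit was tested on simulated data. The text names every member, every gene of the other lists past the threshold or otherwise the 3 of highest level, and the 10 genes most like the members, of which 1 is not reported here. The members, lists and rules were chosen with earlier results of these data known. Alternatives were normexp background correction (offset 50), centring on the median, quantile normalization, keeping all probes or only those above background on all 8 arrays, testing every probe, the series matrix, blocks for replicate number or for slide row, weighted arrays, a trended robust prior, and leaving out each array.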

Additional observations from a re-analysis of the deposited data

Results flagged for a closer look

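In 5 of 66 groups of 4 arrays examined, 1 array lay far from the other 3, where chance would give about 3.3. For 2 genes whose pattern resembled that of the digestive enzymes, the array was knockout 1. Prss1, a trypsinogen, stood at -0.064 there and between -1.90 and -1.67 on the other knockouts. TC1733495, a transcript with no gene name in the files, stood at 3.79 there and between 2.47 and 2.65 on the others. The mean of the liver list was 2.96 on control 1, against 1.61 to 1.78 on the other controls. The mean of the pancreatic duct list was -0.54 on control 3, against -0.80 to -0.77. The mean of the brush border list was 2.99 on control 2, against 3.38 to 3.45. Of the 9 digestive enzyme genes, 0 had such an array.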

How the results depend on the processing

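Under 19 alternatives the 9 genes gave 171 differences, of which 166 kept their direction and their side of the threshold. The exceptions were 3 reversed signs among small differences, Cela1 at -0.11 without knockout 1 and Clps at -0.0047 without control 2 and -0.0033 without control 4, and 2 calls gained with a replicate block, which called 2 members, Cpb1 (-1.25, limma adjusted p 0.0333) and Cela2a (-1.10, 0.0339). Over all genes, same-numbered samples did not deviate together (correlations of -0.071, -0.17, 0.073 and -0.41, with 0 of 4 arrays closest to their own number), so the numbers gave no sign of pairing. Among the members, control 1 and knockout 1 were each the highest of their group for 9 of 9, a shared deviation that a replicate block takes out. Exact permutation tests called 0 members under each alternative in which they could be run; the block and weight fits have none. On leaving out 1 array, Cela1 ran from -0.11 to 0.34, Clps from -0.0047 to 0.30, Ctrb1 from -0.81 to -0.17, Cpa1 from -1.01 to -0.44, Cela3b from -1.17 to -0.50, Prss2 from -1.36 to -0.60, Try4 from -1.31 to -0.58, Cela2a from -1.51 to -0.82, Cpb1 from -1.56 to -0.91 and the median of the 9 from -1.17 to -0.50. Outside the replicate block the lowest limma adjusted p of any member was 0.106.

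Over all genes, 602 were lower and 543 higher. Lower genes numbered 253 with median centring, 203 with no filter, 148 with the replicate block and 1268 with array weights, and 217 to 589 on leaving out 1 array (247 without control 1, 315 without control 3, 343 without control 4, 217 without knockout 1, 231 without knockout 2). Higher genes numbered 298 with no filter, 268 with the replicate block and 830 with array weights, and 335 to 510 on leaving out 1 array (354 without control 1, 335 without knockout 1, 343 without knockout 2). Median centring gave 253 lower against 545 higher and quantile normalization 469 against 624. The cause of these shifts was not tested.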
